A study of Mus musculus with 6 samples.

Results

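The 10 genes described here mark the epicardium and mesothelium, the thin cell sheet that covers the heart and lines the body cavities: Wt1, Tbx18, Aldh1a2, Upk3b, Upk1b, Msln, Muc16, Lrrn4, Krt19 and Efemp1. They were chosen by symbol, and each symbol matched 1 Ensembl identifier, so that they make up 10 of the 49315 genes in the count table. RNA was taken from hearts of 3 mice with a knockout of Arrdc4, made by CRISPR-Cas9, and of 3 wild-type mice, all of the C57BL/6 background, and each heart gave 1 RNA sequencing library. The design sets the knockout hearts against the wild-type ones, to see what the loss of Arrdc4, an alpha-arrestin gene, changes in the transcriptome. Age, sex, litter, the number of knockout lines, the chambers taken and whether the outer membrane of the heart was kept could not be read from the labels.

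The epicardium arises in the embryo from mesothelial cells that spread over the heart tube, and it gives rise to fibroblasts and to cells of the vessel wall. Transcription factors such as WT1 and TBX18 mark it, and it makes retinoic acid, a signal to the growing muscle below, through the enzyme ALDH1A2. In the adult heart it is a quiet single-layered sheet that carries membrane glycoproteins such as mesothelin on its surface and simple epithelial keratins inside. A bulk RNA sample of heart tissue therefore holds only a small share of its transcripts. In such a sample fewer cells of a type and less RNA per cell cannot be told apart.

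The sequences upstream of 3 members are shown because these genes differ in how widely they varied between hearts: Upk3b and Lrrn4 varied widely and in parallel, and Tbx18 varied little. Each is the 250 bases before the RefSeq start on GRCm38.p6, 5′ to 3′ on the gene's strand, in lower case, with matches to any of 5 searched motifs in capitals. The windows are chr5:136038246-136038495 on the plus strand for Upk3b, chr2:132880863-132881112 on the minus strand for Lrrn4 and chr9:87731261-87731510 on the minus strand for Tbx18.
Upk3b: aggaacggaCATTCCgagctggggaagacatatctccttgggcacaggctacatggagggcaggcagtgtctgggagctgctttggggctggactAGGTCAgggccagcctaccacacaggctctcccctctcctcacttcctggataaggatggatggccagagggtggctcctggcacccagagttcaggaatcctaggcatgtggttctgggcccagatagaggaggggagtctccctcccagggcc
Lrrn4: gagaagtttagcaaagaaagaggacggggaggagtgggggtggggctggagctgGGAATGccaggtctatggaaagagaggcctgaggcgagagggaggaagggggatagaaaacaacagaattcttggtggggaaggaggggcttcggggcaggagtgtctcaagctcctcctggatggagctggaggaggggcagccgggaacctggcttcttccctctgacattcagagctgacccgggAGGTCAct
Tbx18: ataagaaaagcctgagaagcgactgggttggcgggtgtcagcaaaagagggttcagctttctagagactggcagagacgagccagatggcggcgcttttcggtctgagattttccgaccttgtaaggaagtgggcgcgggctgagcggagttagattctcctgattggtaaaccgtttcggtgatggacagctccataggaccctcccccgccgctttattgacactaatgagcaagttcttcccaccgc
The motifs were searched on both strands, and no matches of different motifs overlapped in these windows. GGAATG, the core bound by TEAD factors, was found in the windows of Upk3b (on the opposite strand, 241 to 236 bases before the start) and of Lrrn4 (196 to 191 bases before it), and in 12.6% of all 32851 promoter windows of this length. AGGTCA, bound by nuclear receptors, was found in the same pair (155 to 150 bases before the start of Upk3b and 8 to 3 bases before that of Lrrn4) and in 14% of all windows. The T-box motif GGTGTG (16.3% of all windows) was found in the Muc16 window alone of the 6 members with a window, and the WT1 motif GTGGGAG (8.25%) and the TATA box TATAAA (12.4%) in none of the 6. Muc16, which also varied widely between hearts, had no match to GGAATG or AGGTCA. Its RefSeq start lies outside the annotated gene, so its window is uncertain. The annotated Lrrn4 gene reaches into the Lrrn4 window, to chr2:132880891, so the AGGTCA match there lies within the gene. Tbx18, Aldh1a2 and Efemp1 had no match to any of the 5 motifs.

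The libraries held 29974501 to 41036626 counts. Levels are in CPM (reads of a gene per 1000000 reads of its library, with library sizes scaled by TMM, a method that aligns the bulk of genes between libraries). Arrdc4 had 0.117, 0.0345 and 0.0524 CPM in knockout replicates 1 to 3, against 11.04, 8.17 and 8.39 CPM in wild-type replicates 1 to 3 (log2 fold change -6.93, adjusted p = 0.00226, edgeR quasi-likelihood test). A pair of libraries, knockout replicate 2 and wild-type replicate 3, stood apart from the others. On the first principal component, which held 58.9% of the variance, they lay at 43.8 and 42.4, and the other 4 libraries lay between -38.3 and 1.88. Longer genes were lower in this pair relative to the other libraries. Slopes per doubling of exon length were taken on log2 CPM minus each gene's mean over the 6 libraries. They were -0.139 in knockout replicate 2 and -0.145 in wild-type replicate 3, and 0.00991 to 0.0986 in the other 4 libraries. Results are therefore also given without both libraries.

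No member differed between knockout and wild-type hearts beyond the spread between hearts, although all 10 had higher means in knockout. The edgeR quasi-likelihood test, adjusted by Benjamini-Hochberg over 14508 genes with a threshold of 0.05, called 0 of the 10 members, all of which passed the filter on low counts, and each had an adjusted p of 1. The same test called 0.00689% of all genes, which is Arrdc4 alone. At an unadjusted p under 0.05 it held 0 of the 10 members and 1.23% of all genes. DESeq2 called 0 members and 0.0039% of all genes, and at an unadjusted p under 0.05 it held 2 members and 0.927% of all genes. Limma-voom called 0 members and 0.00689% of all genes, and at an unadjusted p under 0.05 it held 0 members and 1.23% of all genes. The values of the groups overlapped for all 10 members, and for all genes tested the groups did not overlap in 4.07%. The median log2 fold change of the members was 1.25, knockout over wild type, beside 0.01 over all genes tested, of which 52.3% lay above 0.

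The pattern behind these means was a wide spread between hearts of the same genotype. All 10 members were highest in knockout replicate 1, which held for 21.6% of all genes tested, and knockout replicate 2 was the lowest for 6 members, which held for 20.4% of all genes. Summed over the members, the level was 54.8, 10.2 and 27.8 CPM in knockout replicates 1 to 3, against 21.4, 14.99 and 12.1 CPM in wild-type replicates 1 to 3. The knockout hearts thus lay both above and below the whole wild-type range. The SD of log2 CPM within a genotype had a median of 1.32 over the members and of 0.293 over all genes tested. It was largest among members for Msln and Upk3b, with only 0.0896% and 0.0965% of tested genes having a larger one, and smallest for Tbx18, with 67.2% having a larger one. Low counts add to such a spread, and the members' counts ran from 2 to 549 reads per library.

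**Figure D1:**
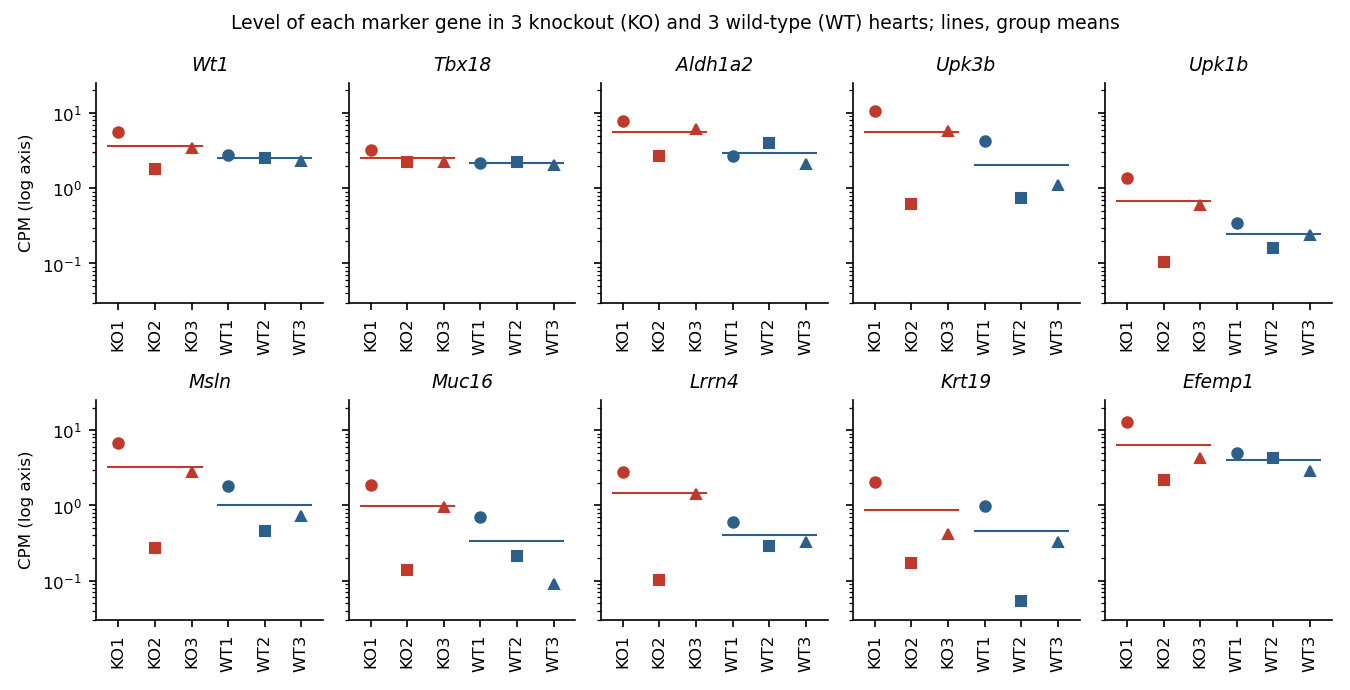
Level of each of the 10 marker genes in CPM (log axis) in knockout (KO, red) and wild-type (WT, blue) hearts. Each point is 1 heart and each line the mean of 3 hearts. Upk3b ran from 0.620 to 10.5 CPM over the 6 hearts, and Tbx18 from 2.06 to 3.17 CPM.

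Of the transcription factors, Wt1 encodes the zinc finger protein of the Wilms tumour locus, which is needed to form the epicardium in the mouse (ENSMUSG00000016458, chr2:105126529-105173616, plus strand, 10 exons in its longest transcript; all gene positions are from GENCODE M21 on GRCm38). Wt1 had 5.62, 1.79 and 3.38 CPM in knockout hearts, against 2.75, 2.53 and 2.298 CPM in wild-type hearts. The 3 wild-type hearts lay within 1.198-fold of each other, and the knockout hearts lay on both sides of them. The log2 fold change of Wt1 was 0.52 (SE 0.39, 95% interval -0.39 to 1.42), and without knockout replicate 1 it was 0.04.

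Tbx18 encodes a T-box repressor of the epicardium that in the mouse also marks pericytes, smooth muscle and the sinus node (ENSMUSG00000032419, chr9:87702800-87731260, minus strand). Tbx18 had 3.17, 2.21 and 2.20 CPM in knockout hearts, against 2.18, 2.24 and 2.06 CPM in wild-type hearts. Knockout replicate 1 stood above the other 5 hearts, which lay close together. Its log2 fold change was 0.23 (SE 0.22, 95% interval -0.29 to 0.75), and it was the 1 member for which the interval excluded a 2-fold difference in either direction. Its exons share 970 bases with D030062O11Rik on the other strand, a gene with 2 to 8 reads per library, and the strand setting of the counting is not given, so some of its reads are uncertain. Pericyte and smooth muscle markers, summed over 9 genes, stood at 1199, 983.9 and 1121 CPM in knockout hearts, against 1061, 1070 and 1106 CPM in wild-type hearts, and their part in the level of Tbx18 was not tested.

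Aldh1a2 encodes the retinaldehyde dehydrogenase that makes retinoic acid in the epicardium (ENSMUSG00000013584, chr9:71215789-71296243, plus strand). Aldh1a2 had 7.93, 2.65 and 6.10 CPM in knockout hearts, against 2.72, 3.99 and 2.09 CPM in wild-type hearts. The highest pair of values came from knockout hearts, and the third knockout heart lay among the wild-type ones. It had the smallest unadjusted p of the members, 0.0620 in edgeR, with an adjusted p of 1 and a log2 fold change of 0.93 (SE 0.42, 95% interval -0.06 to 1.91). Of 14 other genes of the retinoic acid pathway, 10 were tested, with 8 higher and 2 lower values in knockout, 0 called and a median log2 fold change of 0.07. Cyp26b1, which breaks retinoic acid down, had 3.62, 4.96 and 2.04 CPM in knockout hearts, against 13.1, 5.67 and 4.09 CPM in wild-type hearts. The groups overlapped, and its log2 fold change of -1.11 (SE 0.49) had an adjusted p of 1 in edgeR. The reductase gene Dhrs3 stood at -0.23 (SE 0.19) and the related dehydrogenase gene Aldh1a1 at 0.18 (SE 0.19), both on the log2 scale and also with an adjusted p of 1 in edgeR.

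The 5 members that encode membrane glycoproteins varied in parallel. Upk3b is a uroplakin, a membrane plaque protein of the bladder lining that is also a marker of mesothelium (ENSMUSG00000042985, chr5:136038496-136046487, plus strand, 6 exons). Upk3b had 449, 18 and 218 reads in knockout hearts, or 10.5, 0.620 and 5.71 CPM, against 134, 28 and 37 reads, or 4.24, 0.746 and 1.10 CPM, in wild-type hearts. Knockout replicates 1 and 3 and wild-type replicate 1 were high and the other 3 hearts low, so that the wild-type hearts differed among themselves by 5.69-fold and the knockout hearts by 16.9-fold. The log2 fold change of Upk3b was 1.49 (SE 0.96, 95% interval -0.76 to 3.73). Of the 3 low hearts, knockout replicate 2 and wild-type replicate 3 were the pair of libraries that stood apart. They lay at 43.8 and 42.4 on the first principal component. Wild-type replicate 2, the remaining low heart, lay at -25.2, beside knockout replicates 1 and 3. The part of this difference between libraries in the level of Upk3b was not tested.

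Msln encodes mesothelin, a lipid-anchored surface protein that binds the mucin encoded by Muc16 (ENSMUSG00000063011, chr17:25748613-25754378, minus strand). Msln had 6.76, 0.276 and 2.80 CPM in knockout hearts, against 1.84, 0.453 and 0.716 CPM in wild-type hearts. The order of the hearts was that of Upk3b, and the log2 fold change was 1.74 (SE 0.96, 95% interval -0.50 to 3.98). Its partner Muc16 encodes a very long membrane mucin (ENSMUSG00000109564, chr9:18495455-18674530, minus strand, 78 exons in its longest transcript). Muc16 had 79, 4 and 36 reads, or 1.84, 0.138 and 0.943 CPM, in knockout hearts, against 22, 8 and 3 reads, or 0.696, 0.213 and 0.0895 CPM, in wild-type hearts. The same 3 hearts were high, and the log2 fold change was 1.60 (SE 0.92, 95% interval -0.56 to 3.76).

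Lrrn4 encodes a leucine-rich repeat membrane protein (ENSMUSG00000043110, chr2:132868305-132880891, minus strand). Lrrn4 had 2.82, 0.103 and 1.41 CPM in knockout hearts, against 0.601, 0.293 and 0.328 CPM in wild-type hearts. It had the largest fold change among members, 1.86 on the log2 scale (SE 0.89, 95% interval -0.23 to 3.95), and knockout replicate 2, with 3 reads, lay below every wild-type heart. Upk1b encodes a tetraspanin of the uroplakin group (ENSMUSG00000049436, chr16:38773184-38800328, minus strand). Upk1b had 58, 3 and 23 reads, or 1.35, 0.103 and 0.602 CPM, in knockout hearts, against 11, 6 and 8 reads, or 0.348, 0.160 and 0.239 CPM, in wild-type hearts, with a log2 fold change of 1.51 (SE 0.79, 95% interval -0.33 to 3.35). The counts are small, and the 3 reads in knockout replicate 2 give a 95% Poisson interval of 0.0213 to 0.302 CPM, which covers counting error only. Of the other 4 uroplakin genes, none passed the filter on low counts: Upk3a, a plaque protein of the bladder lining, had 0 reads in all 6 hearts, and the 4 genes together had at most 0.453 CPM.

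Krt19 encodes a type I keratin of simple epithelia, which pairs with type II keratins such as that of Krt8 (ENSMUSG00000020911, chr11:100140810-100148665, minus strand). Krt19 had 87, 5 and 16 reads, or 2.03, 0.172 and 0.419 CPM, in knockout hearts, against 31, 2 and 11 reads, or 0.981, 0.0533 and 0.328 CPM, in wild-type hearts. It departed from the order of the 5 membrane glycoprotein genes, since wild-type replicate 1 stood above knockout replicate 3. Its log2 fold change of 1.01 (SE 1.05, 95% interval -1.44 to 3.46) was -0.54 without knockout replicate 1, and keratin genes are similar enough in sequence that reads may be shared. Efemp1 encodes fibulin-3, a matrix glycoprotein that fibroblasts also make (ENSMUSG00000020467, chr11:28853204-28926743, plus strand). Efemp1 had 12.8, 2.17 and 4.22 CPM in knockout hearts, against 5, 4.31 and 2.84 CPM in wild-type hearts. Knockout replicate 1 alone was high, and the log2 fold change of 0.67 (SE 0.60, 95% interval -0.73 to 2.07) was -0.33 without that heart.

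The fold changes depended on single hearts of both genotypes. Without knockout replicate 1 the median log2 fold change of the members was 0.58, with 8 members above 0 and 2 below, against 1.25 with all 6 hearts. Without wild-type replicate 1, the highest wild-type heart for 8 members, it was 2.02, and without knockout replicate 2 it was 1.73. In these 3 fits 0 members were called, beside 0.00678%, 0.00674% and 0.00675% of all genes, which is 1 gene in each. Without knockout replicate 2, 8 of the 10 members had an unadjusted p under 0.05 in edgeR, where 7.6% of all genes did. Their adjusted p in that fit was 0.613 or higher. Knockout replicate 2 was the lowest heart for 6 members, so leaving it out raises the knockout values. Several members also varied in parallel, so the 8 are not independent results, and their share cannot be read as an excess over all genes. Both limits also hold for the next fit. With both libraries that stood apart left out, the median was 1.46, the fold changes ran from 0.27 for Tbx18 to 2.25 for Lrrn4 on the log2 scale, 7 had an unadjusted p under 0.05, where 6.71% of all genes did, and 0 were called, beside 0.0137% of all genes.

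**Figure D2:**
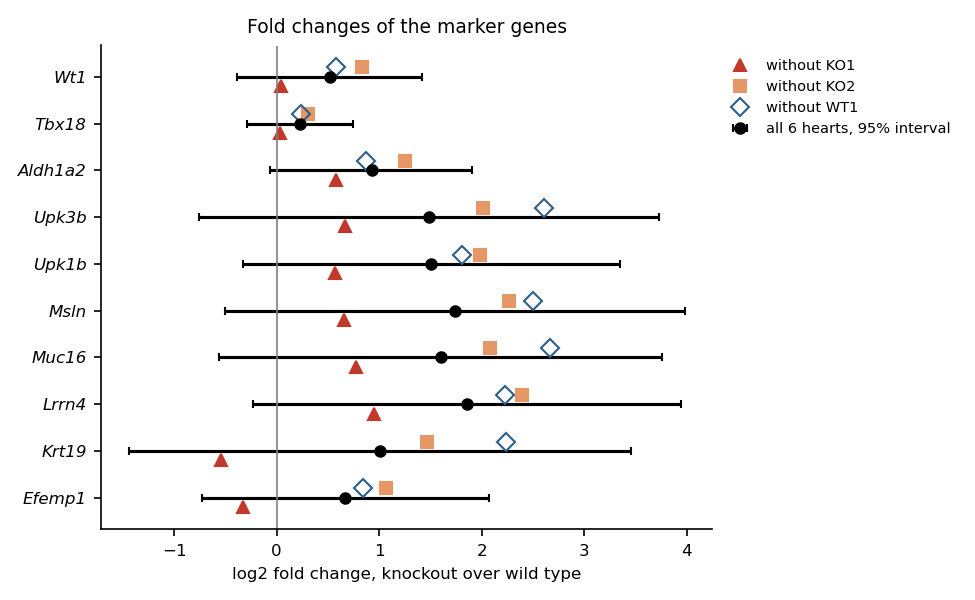
Log2 fold change of each marker gene, knockout over wild type, from the edgeR fit. Black points and bars are the values and 95% intervals with all 6 hearts, and the other symbols are the values with 1 heart left out. All 10 intervals include 0, and the values without knockout replicate 1 (red triangles) lie below the other symbols of the same gene, and below 0 for Krt19 and Efemp1.

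Set against Upk3b within a heart, the other membrane glycoprotein genes varied less than in level. The reads of Msln per read of Upk3b were 0.646, 0.444 and 0.491 in knockout hearts, against 0.433, 0.607 and 0.649 in wild-type hearts, a range of 1.5-fold over hearts in which Upk3b itself spanned 16.9-fold. As a share of the reads of both genes, Msln took 39.2% (exact 95% binomial interval 35.7% to 42.9%) in knockout replicate 1, 30.8% (14.3% to 51.8%) in knockout replicate 2 and 30.2% (23.8% to 37.2%) in wild-type replicate 1. The intervals of all 6 hearts overlapped, and these intervals cover counting error only. The ratio to Upk3b spanned 2.63-fold for Upk1b, 2.77-fold for Lrrn4, 3.53-fold for Muc16 and 4.16-fold for Krt19. It spanned more for Wt1 (6.31-fold), Efemp1 (7.83-fold), Aldh1a2 (8.35-fold) and Tbx18 (11.7-fold). Wt1 took 34.9% (31.4% to 38.6%) of the reads of Wt1 and Upk3b in knockout replicate 1 and 77.2% (68.8% to 84.3%) in wild-type replicate 2, intervals that did not overlap.

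**Figure D3:**
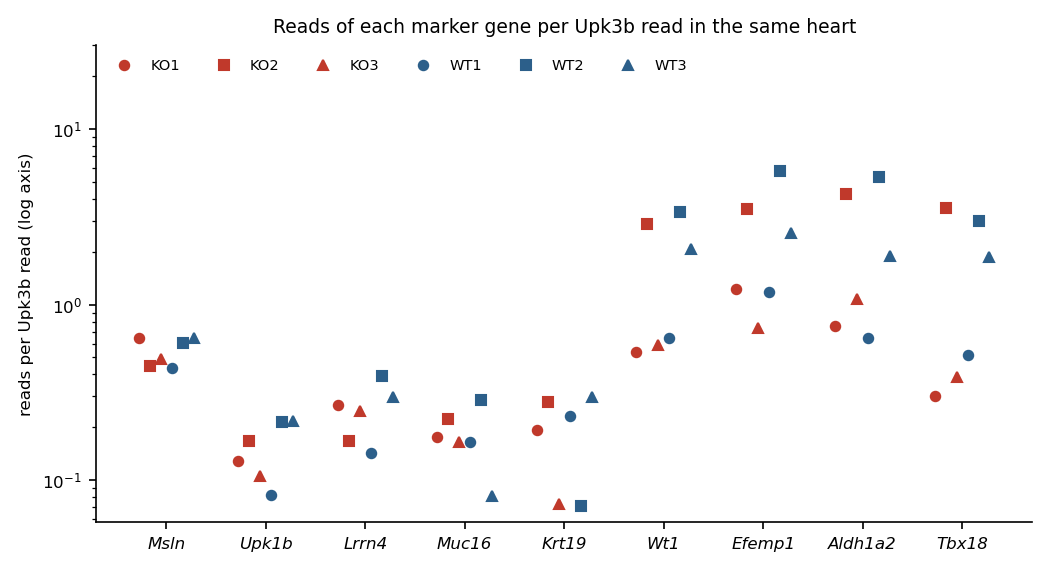
Reads of each marker gene per read of Upk3b in the same heart (log axis), for 3 knockout (KO, red) and 3 wild-type (WT, blue) hearts. The points of Msln lie within 1.5-fold of each other, and those of Tbx18 spread over 11.7-fold, with the hearts low in Upk3b at the top.

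Profiles were also compared by the Euclidean distance between centred log2 CPM values over the 6 libraries. The nearest pair of members was Upk3b and Msln at 0.571, followed by Msln and Lrrn4 at 0.728. The next were Wt1 with Efemp1 at 0.839, Wt1 with Aldh1a2 at 0.864 and Wt1 with Tbx18 at 0.864. All pairs come from the same 6 libraries, and the distance also depends on how far a gene's level ranges.

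Compared per length, as CPM per kilobase of exon (RPKM), Efemp1 and Aldh1a2 were the most abundant members and Muc16 the least. Efemp1 averaged 3.14 ± 2.77 RPKM in knockout hearts and 1.99 ± 0.543 RPKM in wild-type hearts, and Aldh1a2 averaged 2.46 ± 1.18 and 1.30 ± 0.429 RPKM in knockout and wild-type hearts (SD, n = 3 each). The order of this pair was the same in 4 of the 6 hearts. Aldh1a2 exceeded Upk3b in 6 of 6 hearts, and Upk3b, at 1.59 ± 1.40 RPKM in knockout hearts and 0.575 ± 0.545 RPKM in wild-type hearts (SD, n = 3 each), exceeded Msln in 6 of 6. The neighbours from Msln through Tbx18, Wt1, Krt19 and Lrrn4 to Upk1b changed places between hearts, each step holding in only 3 or 4 of 6. Muc16 averaged 0.0370 ± 0.0324 RPKM in knockout hearts and 0.0126 ± 0.0122 RPKM in wild-type hearts (SD, n = 3 each), below Upk1b in 6 of 6 hearts. The levels of Wt1 and Msln depend on their assumed lengths, and the orders above use the union of exons. Over the 6 hearts Wt1 averaged 0.494 RPKM with the union of its exons and 0.991 RPKM with its longest transcript. Msln averaged 0.699 and 0.989 RPKM in the same way, and Upk3b 1.08 RPKM with either length. The order of Upk3b and Msln in single hearts may therefore differ with the longest transcript.

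Other epicardial and mesothelial genes followed this order of hearts only in part. Of 19 such genes, 13 passed the filter on low counts, with 12 higher and 1 lower in knockout, 0 called, a median log2 fold change of 0.45, and knockout replicate 1 the highest heart for 10. Summed over the 19 genes the level was 38.6, 32.5 and 31.7 CPM in knockout hearts, against 29.7, 20.9 and 36.4 CPM in wild-type hearts. The groups overlapped, and wild-type replicate 3 came next after knockout replicate 1. This sum is weighted to Scx and Tcf21, the most abundant genes of the list, and says little of the lower genes. Bnc1, which encodes the zinc finger protein basonuclin 1, had 0.840, 0.0345 and 0.419 CPM in knockout hearts, against 0.316, 0.0266 and 0.0597 CPM in wild-type hearts, with the same 3 hearts high as for Upk3b. Sema3d, a secreted semaphorin gene, had 3.97, 1.14 and 3.77 CPM in knockout hearts, against 1.84, 1.52 and 1.10 CPM in wild-type hearts (log2 fold change 1, SE 0.46, adjusted p = 1 in edgeR). Tcf21, a transcription factor gene of fibroblasts and epicardium, did not follow that order, with 7.32, 7.41 and 9.87 CPM in knockout hearts, against 6.49, 4.29 and 9.58 CPM in wild-type hearts. The keratin gene Krt8 varied less, with a log2 fold change of 0.57 (SE 0.34). Scx, a tendon and epicardial transcription factor gene, was the 1 lower member of this list at -0.20 (SE 0.56) and was highest in the pair of libraries that stood apart, at 16.2 CPM in knockout replicate 2 and 15.4 CPM in wild-type replicate 3. Calb2, a marker of human mesothelium, had 1 read in all 6 hearts together.

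Markers of other cell types and of dividing cells also differed between hearts, and their part in the values of the epicardial genes was not tested. Summed levels in CPM are given for knockout replicates 1 to 3 and then for wild-type replicates 1 to 3. Fibroblast markers stood at 2203, 937.6 and 1912 against 1325, 1746 and 1184, endothelial markers at 616.2, 258.7 and 460.3 against 384.8, 533.2 and 271.0, and macrophage markers at 213.6, 72.1 and 117.4 against 116.8, 152.0 and 89.2. All 3 lists were highest in knockout replicate 1 and lowest in knockout replicate 2, and wild-type replicate 2, low in Upk3b, was the highest wild-type heart in each. Of the 9 fibroblast markers 8 were higher and 1 lower (median log2 fold change 0.75), of the 5 endothelial markers 3 were higher and 2 lower (0.13), and of the 6 macrophage markers all 6 were higher (0.17). Of 12 cell cycle genes 11 were tested, all 11 higher, with a median of 1.68, and knockout replicate 1 was the highest heart for 10. Top2a, which untangles DNA in dividing cells, had 8.56, 0.930 and 2.67 CPM in knockout hearts, against 1.42, 1.15 and 0.269 CPM in wild-type hearts. None of these genes was called by edgeR.

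**Figure D4:**
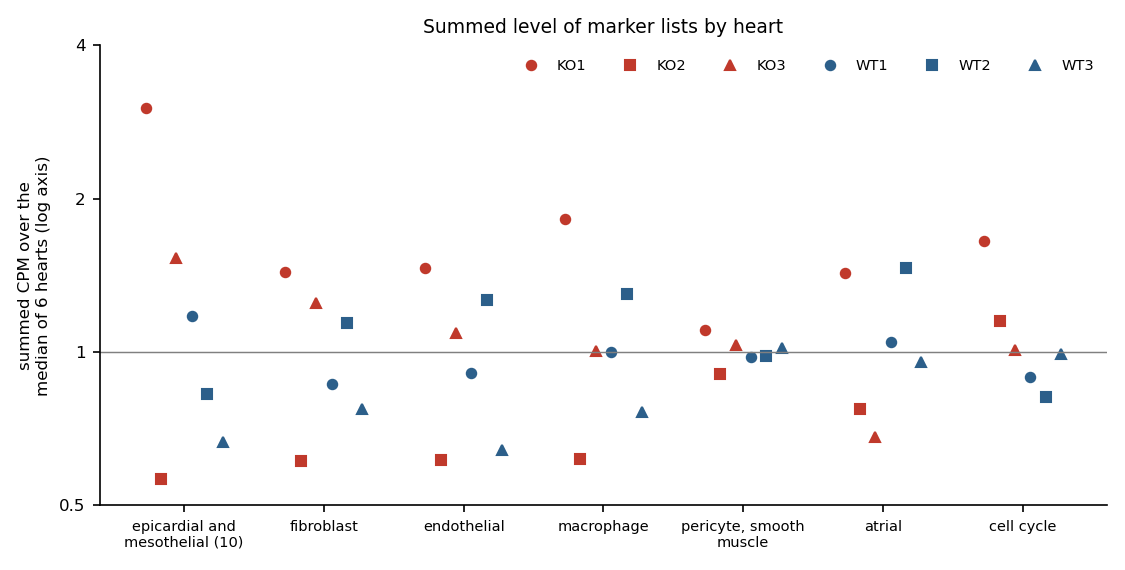
Summed CPM of the 10 epicardial and mesothelial genes and of 6 other marker lists, each divided by its median over the 6 hearts (log axis), in knockout (KO, red) and wild-type (WT, blue) hearts. A sum is weighted to the most abundant genes of a list, such as Pcna in the cell cycle list (31.2, 45.6 and 31.1 CPM in knockout hearts). Without Pcna the other 11 cell cycle genes summed to 45.2, 7.68 and 15.6 CPM in knockout hearts, against 9.87, 10.04 and 4.51 CPM in wild-type hearts, a wider spread than that of the 10 marker genes, which ran from 10.2 to 54.8 CPM.

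Markers of lung epithelium, and most of those of fat cells, had few reads. The lining of the body cavities shares the members as markers, so no list here could show whether it was taken with the heart. Of 8 lung epithelium markers, Sftpc, Sftpa1, Sftpd and Nkx2-1 had 0 reads in every library, and the list summed to 0.183 to 0.241 CPM in knockout hearts and 0.149 to 0.222 CPM in wild-type hearts. The fat cell markers other than Fabp4, which endothelium also makes, did not pass the filter on low counts, and Fabp4 had a log2 fold change of -0.02 (SE 0.17). Atrial markers summed to 125, 67.8 and 59.8 CPM in knockout hearts, against 91.7, 128.1 and 83.9 CPM in wild-type hearts, mostly from the natriuretic peptide gene Nppa. The atrial light chain gene Myl7 had 0.933, 0.103 and 0.340 CPM in knockout hearts, against 0.285, 0 and 0.179 CPM in wild-type hearts. Of the 3 tested atrial markers it was the 1 that was highest in knockout replicate 1. Myl4 had 1.38, 1.83 and 1.13 CPM in knockout hearts, against 0.854, 1.065 and 1.85 CPM in wild-type hearts. The atrial markers Sln and Bmp10 did not pass the filter, with at most 0.172 and 0.0524 CPM in any heart. How much atrium the samples held was not tested. Of the sinus node markers, Isl1 had 0 reads in every library and Hcn4 a log2 fold change of 0.11 (SE 0.19). The 6 cardiomyocyte markers split into 3 higher and 3 lower, with a median of -0.01. The fibulin family gave 4 higher and 1 lower of 5 tested (Efemp2 0.47, SE 0.29), and the 4 cardiac T-box genes were all higher (Tbx2 0.52, SE 0.30), with 0 called in either by edgeR.

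The 10 genes whose profiles lay nearest to the members' mean profile, out of 11755 candidates, were Kif11, Tpx2, Anln, Col5a3, Gpc3, Sema3d, Racgap1, Ccr2, Myo1f and S1pr3, at distances of 0.653 to 1.09 over the 6 libraries. The members themselves lay at 0.451 (Upk1b) to 2.03 (Tbx18) from their mean. Kif11, a kinesin gene of the mitotic spindle, had 3.57, 0.482 and 1.204 CPM in knockout hearts, against 1.14, 0.746 and 0.478 CPM in wild-type hearts. S1pr3, a receptor gene for sphingosine 1-phosphate, had 30.5, 6.62 and 20.3 CPM in knockout hearts, against 12.2, 14.3 and 8.48 CPM in wild-type hearts. All 10 were highest in knockout replicate 1, which follows from their selection, since the members' mean profile was highest there. None was called by edgeR. A mean log2 CPM of at least 0 was required, which left out genes as low as Bnc1.

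**Figure D5:**
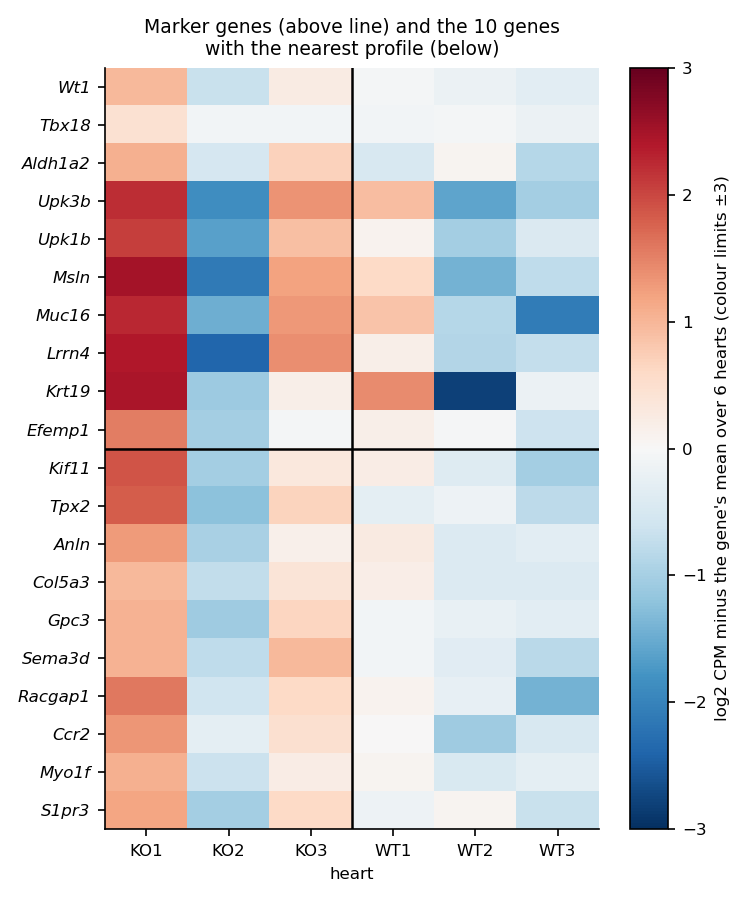
Log2 CPM minus the gene's mean over 6 hearts, as colour, for the 10 marker genes (above the line) and the 10 genes with the nearest profile (below it) in knockout (KO1 to KO3) and wild-type (WT1 to WT3) hearts. The column of KO1 lies above each gene's mean, from a pale tint for Tbx18 to red. The row of Tbx18 is nearly white in the other 5 hearts.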

How the data were processed

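The authors deposited raw read counts, 1 whole number for each gene and library. The submitters' processing notes name STAR, featureCounts, Subread 1.5.2, DESeq2 and GRCm38.p6 but give none of them a role, and the annotation release, strand setting and handling of shared reads are not given there. Per the labels' protocols, RNA was purified with a Qiagen kit and libraries were made with NEBNext Ultra II RNA reagents. Reads carry no molecular identifiers.

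Symbols, positions and exon lengths came from GENCODE M21 on GRCm38, and 345 of 49315 identifiers had no symbol. Genes were kept by filterByExpr (minimum count 10, minimum total 15), which all 10 members passed, scaled by TMM and tested with edgeR 4.0.16 (quasi-likelihood, no replicate term) in R 4.3.3. DESeq2 1.42.0 and limma 3.58.1 (voom) were alternatives. The test was tried on simulated counts, with changes put into genes drawn from all those tested. It recovered 1 of 50 genes changed 1.5-fold, 12 of 50 changed 2-fold, 41 of 50 changed 4-fold and 49 of 50 changed 8-fold. Most 2-fold changes were thus missed among genes drawn in this way. Of the 10 members, 9 had an SD within a genotype above the median of all genes tested. That SD had a median of 1.32 over the members, against 0.293 over all genes. The recovery rates therefore do not carry over to the members, for which larger changes could also be missed. Low members passed the filter through the hearts where they are high. RefSeq windows (GRCm38.p6) were available for 6 of 10 members. For Muc16, bases after the RefSeq start were not found in its GENCODE M21 transcripts. Profiles used log2 CPM with a prior count of 2.

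The members and gene lists were chosen with earlier results of these data known. Named genes were all members, up to 3 per list by smallest p, the 10 genes of nearest profile and genes that overlap a member. Other genes named beside them, such as those at 0 and Scx, Tcf21, Calb2, Nppa, Pcna and Isl1, were chosen after their values were seen. Same-numbered samples are not said to be paired.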

Additional observations from a re-analysis of the deposited data

How the results depend on the processing

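No member was called in any of the 16 other settings, which were other scalings, filters and tests, each heart left out, a replicate block, both libraries that stood apart left out and an offset for exon length. The last pair was chosen after seeing the data. Without any 1 heart the median log2 fold change of the members ran from 0.58 to 2.02. Krt19 ran from -0.54 to 2.24 and Efemp1 from -0.33 to 1.07, both below 0 without knockout replicate 1, and the other 8 members stayed above 0. In the fits other than these leave-one-out ones, the median was 0.80 to 1.46, the lowest with a filter of 1 CPM in 3 samples, which left 6 members. Without a filter, 5 of 10 members had an unadjusted p under 0.05, and 447 of 25672 genes. The count of genes called over the whole table was 1, and ran from 0 to 1 without any 1 heart. It was 0 with the replicate block and 2 without both libraries that stood apart. With the block the members' median was 1.03. Same-numbered hearts correlated at 0.18, -0.65 and -0.4 in their deviations. The libraries that stood apart, knockout replicate 2 and wild-type replicate 3, correlated at 0.68. Such deviations also carry that difference between libraries, so they cannot settle whether hearts were paired. With the longest transcript as length Wt1 stood at 0.991 RPKM against 0.494, and Msln at 0.989 RPKM against 0.699. Members with fewer than 10 reads in a heart are limited by depth.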
